A study of Mus musculus with 18 samples.

Results

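The 37 genes of mouse mitochondrial DNA were followed in RNA sequencing libraries of freshly isolated cholangiocytes, which form the lining of bile ducts. Members were the rows placed on the mitochondrial chromosome (chrM, build mm10) in the deposited tables, 37 of 55401 genes: 13 mRNAs, 2 ribosomal RNAs (rRNAs) and 22 transfer RNAs (tRNAs). The 18 libraries form 6 groups of 3. They are wild type (WT) and PLD (polycystic liver disease) mice at 1 month and at 2 months after tamoxifen induction, and PLD mice treated with CPTH6, an inhibitor of histone acetyltransferases, or with ML324, an inhibitor of histone demethylases. The titles place both treated groups at 3 months. Strain, age, sex, the PLD alleles, the Cre driver and the doses are not given in the sources used here, and no untreated PLD library at 3 months was analysed here. Cells were released from minced bile ducts with collagenase and captured on beads with an antibody to EpCAM, a surface protein of epithelial cells, and the molecule is labelled polyA RNA. The labels do not say whether replicates came from separate mice, so p-values measure only the spread between these libraries.

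Mitochondrial DNA is a small circle inside each mitochondrion that is copied and transcribed apart from the nuclear chromosomes. Both strands are transcribed as long precursors, which are cut into mRNAs, rRNAs and tRNAs, largely at the tRNAs that lie between the other genes. The mRNAs encode subunits of the respiratory chain (complexes I, III and IV) and of the ATP synthase (complex V), which also need many nuclear subunits. Nuclear DNA holds old insertions of mitochondrial DNA, and a read that matches both places cannot be assigned to either.

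Such an insertion covers part of the genes described here. A run of 7 annotated genes on chromosome 1, chr1:24611535-24616197 on the minus strand (4663 bases), matched the stretch of chrM from base 6381 to base 11042 in the same order. It holds copies of the 3′ part of mt-Co1, of mt-Co2, mt-Atp6, mt-Co3, mt-Nd3 and mt-Nd4l, and of the 5′ part of mt-Nd4, and 5 of the 7 copies were identical to their mitochondrial gene over every aligned base. The start of mt-Co3 (chrM:8607-8666) is shown beside that of its copy Gm28437 (chr1:24613912-24613971, minus strand) because no base separates them. The capitals mark the start codon, and the sequences are those of the GENCODE transcripts on mm10.
mt-Co3: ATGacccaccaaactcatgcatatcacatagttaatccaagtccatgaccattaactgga
Gm28437: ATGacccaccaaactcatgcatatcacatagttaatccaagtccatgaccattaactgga
The copy of mt-Co1, Gm29216, differed at 6 bases, all within the first 13 aligned bases, shown in capitals (chrM:6381-6440 and chr1:24616138-24616197, minus strand). Counted from the first base of mt-Co1, with the mitochondrial base first, these are T1056A, C1057T, A1059G, A1060G, C1062A and A1066T.
mt-Co1: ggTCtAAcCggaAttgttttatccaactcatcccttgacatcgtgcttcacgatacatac
Gm29216: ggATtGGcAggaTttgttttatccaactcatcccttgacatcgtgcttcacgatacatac
The copy of mt-Nd3 differed only by T3C. In windows of 100 bases, 99.5% of those of mt-Co2, 99.5% of mt-Atp6, 99.9% of mt-Co3, 97.6% of mt-Nd3 and 98.5% of mt-Nd4l also occurred in another annotated transcript. The share was 60.8% for mt-Nd4, 30.8% for mt-Co1 and 3.2% for mt-Nd2, and 0% for mt-Nd1, mt-Nd5, mt-Nd6 and mt-Cytb. The read length is not given in the sources used here. Windows of 150 bases gave 97.0% to 99.4% for mt-Nd3, mt-Nd4l, mt-Atp6 and mt-Co2 and 99.8% for mt-Co3.

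mt-Atp8, which encodes a small membrane subunit of the ATP synthase, lies inside the same stretch between mt-Co2 and mt-Atp6. No annotated transcript on chromosome 1 covers it, so its windows came out at 0% shared, and its letters on chromosome 1 were not read here. Its whole gene (chrM:7766-7969) is shown because its last 43 bases, in capitals, are also the first of mt-Atp6, where a read falls on both genes.
mt-Atp8: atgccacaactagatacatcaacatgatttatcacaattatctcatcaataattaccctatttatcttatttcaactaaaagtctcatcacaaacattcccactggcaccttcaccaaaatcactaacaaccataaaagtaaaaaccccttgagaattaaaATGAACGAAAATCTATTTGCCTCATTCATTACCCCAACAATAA

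The 13 mRNAs fell into 2 classes by counts per kilobase of gene length. Levels are given as CPM, read counts scaled to a common library size with TMM factors, and between genes per kilobase of the deposited gene length. A set of 7 mRNAs was abundant in every library. mt-Co1, the catalytic core of complex IV, had a median of 4754 CPM per kilobase, mt-Cytb, the cytochrome b of complex III, 2137, and mt-Nd1, the membrane subunit of complex I next to its peripheral arm, 1728. The other complex I genes of that class, mt-Nd2, mt-Nd5, mt-Nd4 and mt-Nd6, had medians of 980, 675, 669 and 586 CPM per kilobase. Divided instead by the number of window positions that were not shared, mt-Nd4 came to 1838, above mt-Nd2 at 1119, and mt-Co1 to 7345 CPM per kilobase, so the order of mt-Nd4 and mt-Nd2 depends on how shared sequence is treated. The remaining 6 mRNAs were the genes that lie wholly inside the copied stretch, and their medians were far lower: mt-Nd3 10.4, mt-Co2 8.26, mt-Atp6 6.47, mt-Co3 5.47, mt-Nd4l 2.72 and mt-Atp8 0.878 CPM per kilobase. Together these 6 held 220 to 982 counts per library, or 0.0920% to 0.219% of the counts of the 13 mRNAs, while mt-Co1 alone held 45.7% to 55.4%. Whether reads that could not be assigned account for these low counts was not tested. This holds for mt-Atp8 too, whose 0% of shared windows covers annotated transcripts only. Whether fold changes of these 6 rows, given below, follow the levels of the whole mRNAs was not tested either. The 7 copies on chromosome 1 held a like number, 274 to 1375 counts per library in sum.

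**Figure D1:**
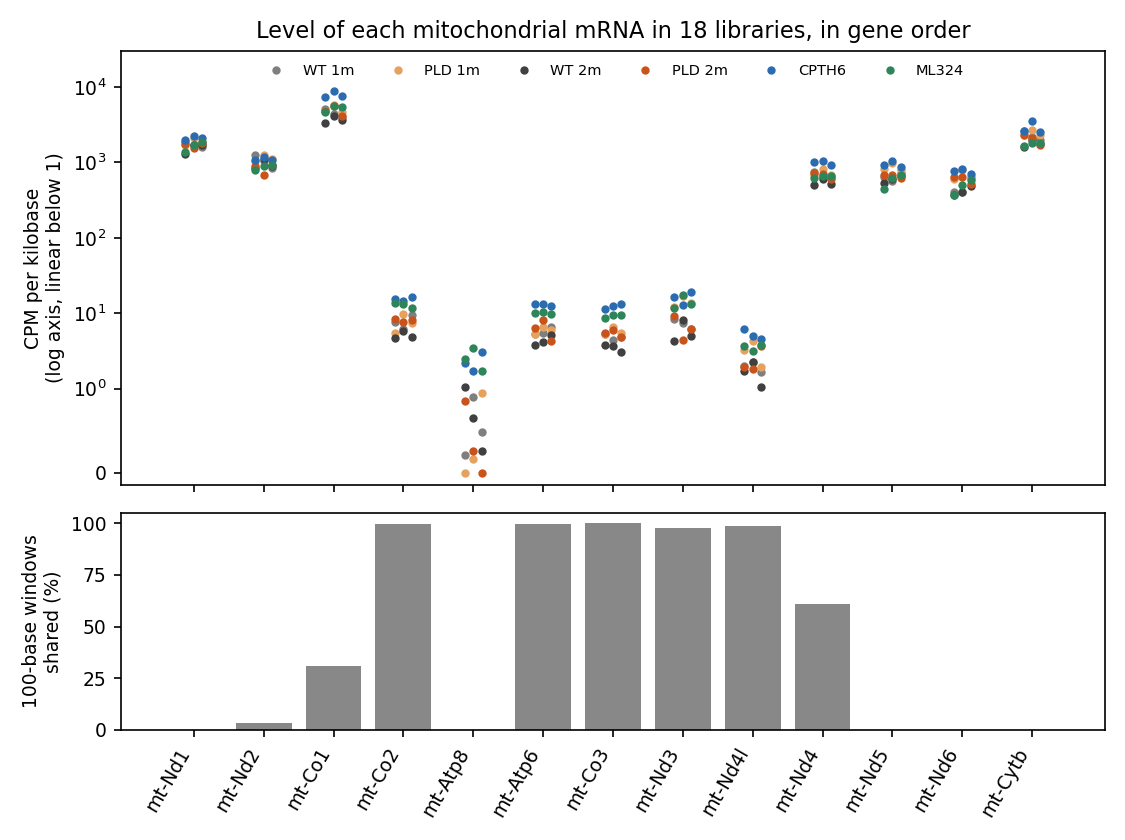
Upper panel: CPM per kilobase of each mitochondrial mRNA in 18 libraries on a log axis that is linear below 1, in gene order, coloured by group. Lower panel: percent of the gene's 100-base windows that also occur in another annotated transcript. The 6 mRNAs from mt-Co2 to mt-Nd4l have medians of 0.878 to 10.4 CPM per kilobase, and the other 7 have medians of 586 to 4754.

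Both rRNA rows had ample counts. mt-Rnr1 (12S) had 212 to 1198 CPM and mt-Rnr2 (16S) 254 to 1062 CPM across the 18 libraries. tRNA rows were thin. A polyA library is not made to capture tRNAs, and some tRNA genes lie inside the copied stretch. The part of either in these low counts was not tested. Of the 22, 8 passed the filter on low counts among the untreated libraries (mt-Tl1, mt-Tw, mt-Tn, mt-Tc, mt-Ty, mt-Tl2, mt-Te and mt-Tp), and mt-Th passed as well in the fits with treated libraries. mt-Ts2 reached 10 counts in 2 libraries only. The other 12 stayed under 10 counts in every library, and 4 of them, mt-Tf, mt-Ts1, mt-Td and mt-Tk, had no count in any. Of the 12, mt-Ts1, mt-Td, mt-Tk, mt-Tg and mt-Tr lie inside the copied stretch, and the rest, mt-Tf among them, lie outside it. For those inside, 0% of windows of 50 bases occurred in another annotated transcript. As for mt-Atp8, the letters opposite them on chromosome 1 were not read here. A count of 0 allows up to 3 counts, or 0.102 to 0.184 CPM at these depths, and intervals of this kind cover counting error only. mt-Tp, the proline tRNA, had the most counts of the tRNA rows, 10497 over the 18 libraries, against 1685 for mt-Tc, the cysteine tRNA. Both lie on the strand opposite to most of the mRNAs, mt-Tp at chrM:15356-15422 and mt-Tc at chrM:5192-5257. They are shown because they carry 4 of the 6 tRNA calls below, with the anticodon in capitals.
mt-Tp: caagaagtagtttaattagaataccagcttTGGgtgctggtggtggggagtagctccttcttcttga
mt-Tc: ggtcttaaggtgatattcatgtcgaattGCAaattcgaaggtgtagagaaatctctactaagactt
The files' headers show counting without regard to strand. Reads from mt-Nd6, mt-Tp, mt-Tc or another gene of that strand therefore cannot be told apart from reads of the opposite transcript at the same place.

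The 18 libraries held 16345740 to 29277311 counts assigned to genes, and no library repeated another. CPTH6 libraries held 25646673 to 29161949 counts, ML324 libraries 16345740 to 17922506 and PLD at 2 months 17048976 to 19958375. WT replicate 1 at 2 months had counts for 40039 genes, against 22780 to 30332 in the other libraries. The part of these differences in the results below was not tested. Lists of markers for other cells of the bile duct region differed widely between groups. The summed level of 16 endothelial markers was 11229 to 19913 CPM in WT and 1118 to 2157 CPM in PLD at 2 months, and 217 to 973 CPM in the treated libraries. That of 16 fibroblast markers was 8102 to 15238 CPM in WT and 3889 to 8020 CPM in PLD at 2 months, and 322 to 1148 CPM in the treated libraries. No endothelial or fibroblast marker was at 0 in all libraries of a group. The cholangiocyte markers, which include Krt19 and Epcam, summed to 4172 to 8198 CPM in WT and 23317 to 24650 CPM in PLD at 2 months, and 16 of 20 were called higher there. They reached 31441 to 39220 CPM with CPTH6 and 27233 to 33997 CPM with ML324. The sum of 20 hepatocyte markers was 1507 to 2082 CPM in WT and 3573 to 6127 CPM in PLD at 2 months, 5271 to 6460 CPM with CPTH6, where 1 marker was at 0, and 3449 to 4773 CPM with ML324. Their mean log2 CPM went the other way, 3.64 in WT and 2.88 in PLD at 2 months, 2.50 with CPTH6 and 2.22 with ML324. Of the 20, 4 were called higher and 7 lower in PLD at 2 months, with a median log2 fold change of -1.04. The sum of 15 macrophage markers was 1654 to 2082 CPM in WT and 1008 to 2036 CPM in PLD at 2 months, 904 to 1221 CPM with CPTH6 and 725 to 854 CPM with ML324. At 1 month the fibroblast sums spread from 3467 to 20045 CPM in WT and were 11442 to 14857 CPM in PLD. In the same order, endothelial sums were 3428 to 8427 and 3568 to 6992 CPM. Cholangiocyte sums were 6393 to 14978.5 and 14260 to 19898 CPM, and macrophage sums 1292 to 2582 and 812 to 1188 CPM. Hepatocyte sums were 1564 to 3123 and 2960 to 4000 CPM, with mean log2 CPM of 3.21 and 2.73. The mean mitochondrial RNA content of these cell types is not measured in bulk libraries, and fewer cells of a type cannot be told apart from less RNA per cell. The part of this cell mixture in each result below was not tested.

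The share of a library that fell on the 13 mRNAs was highest with CPTH6. It was 1.53%, 1.37% and 1.51% of the assigned counts in WT at 1 month and 1.53%, 1.86% and 1.56% in PLD at 1 month. At 2 months it was 1.22%, 1.34% and 1.30% in WT and 1.53%, 1.48% and 1.35% in PLD. The 3 libraries with CPTH6 had 2.02%, 2.17% and 2.00%, and those with ML324 1.32%, 1.599% and 1.53%. All 3 CPTH6 libraries lay above each of the other 15, which ran from 1.22% to 1.86%. WT and PLD did not overlap at 2 months and overlapped at 1 month. Means were 1.47% ± 0.0905, 1.65% ± 0.180, 1.29% ± 0.0578, 1.45% ± 0.0904, 2.06% ± 0.0912 and 1.48% ± 0.148 in the same order of groups (SD, n = 3), and as a score over the members this share was not tested.

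The share of the 2 rRNAs was 0.0477%, 0.0983% and 0.167% in the 3 libraries of PLD at 2 months, and 0.186% to 0.216% with CPTH6. mt-Rnr1 stood at 1063, 1080 and 981 CPM in WT at 1 month and at 414, 641 and 550 CPM in PLD at 1 month, without overlap. The log2 difference was -0.98 ± 0.55 (SE) with an edgeR adjusted p of 0.302, which does not pass the test. The ratio of mt-Rnr1 to mt-Rnr2 counts was 2.05, 1.72 and 2.29 in WT at 1 month and 0.606 to 1.68 in the other 15 libraries. Both rRNAs come from the same promoter region of the same strand, and this ratio is given as a description with no test.

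**Figure D2:**
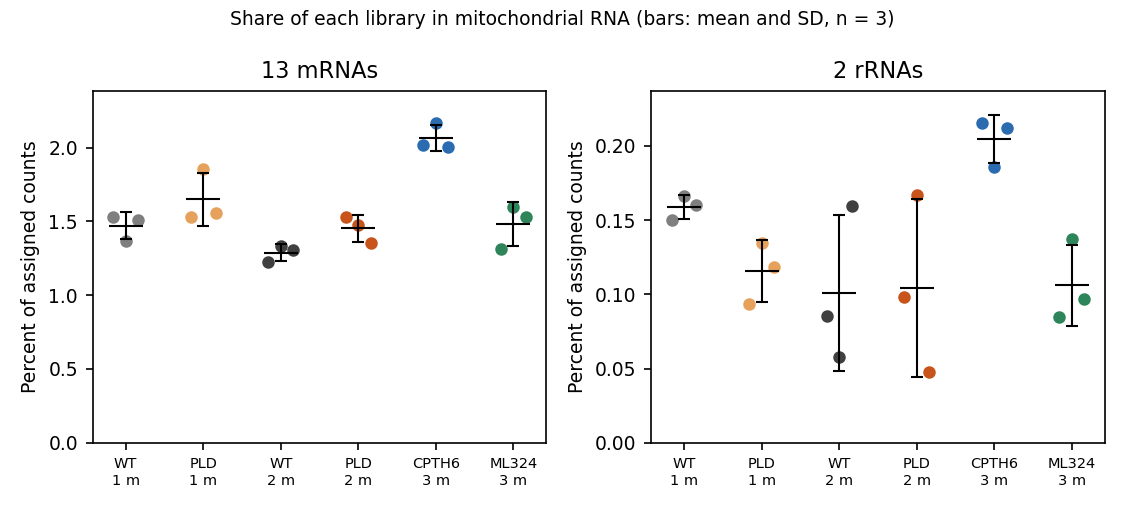
Percent of the assigned counts of each library in the 13 mitochondrial mRNAs (left) and the 2 rRNAs (right), by group, with mean and SD (n = 3). The 3 CPTH6 libraries lie between 2.00% and 2.17% for the mRNAs, above the 1.22% to 1.86% of the other 15.

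The first comparison asked how PLD differs from WT 1 month after induction. No mitochondrial mRNA was called by edgeR at an adjusted p under 0.05. Of 12 mRNAs tested (mt-Atp8 did not pass the filter), 3 had an unadjusted p under 0.05, 11 had a positive fold change, and the DESeq2 alternative called 2. Of all 17749 genes tested, edgeR called 3% higher and 2.02% lower, and the share that DESeq2 called is not given here. The median log2 fold change of the 12 mRNAs was 0.13, against -0.05 over all genes. The mRNAs are cut from shared precursors and counted in the same libraries, so their signs are not separate observations, here or below. mt-Nd3, a small complex I subunit, had the largest difference. It stood at 2.89, 2.57 and 2.15 CPM in WT and 4.25, 5.86 and 4.72 CPM in PLD, without overlap. Its log2 fold change was 0.94 ± 0.32 (SE), adjusted p 0.107. mt-Co2 had the smallest, -0.05 ± 0.24, adjusted p 0.930, and its sign turned when WT replicate 3 (0.13) or PLD replicate 1 (0.14) was left out. Leaving out WT replicate 3 at 1 month raised the number of called mRNAs from 0 to 2. Over all genes with 10 or more counts in a pair, that library differed most from its group. Its chi-square per degree of freedom was 195 and 196 against WT replicates 1 and 2, and 37.3 between those.

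The cysteine tRNA row mt-Tc was the only mitochondrial row called at 1 month. It stood at 2.81, 2.39 and 1.85 CPM in WT and 7.19, 6.50 and 7.24 CPM in PLD. The groups did not overlap, and the log2 fold change was 1.55 ± 0.28 with an adjusted p of 0.0157. The call was lost without WT replicate 2, PLD replicate 1 or PLD replicate 2, and when only the 6 libraries compared were fitted, where the adjusted p reached 0.0751 at most.

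At 2 months, 3 mitochondrial mRNAs were higher in PLD than in WT and none was lower: mt-Co2 and mt-Co3, which encode the other core subunits of complex IV, and mt-Nd6 of complex I. Over all genes 19.7% were called higher and 20.3% lower, so 3 of 12 is near the background. mt-Co3 stood at 2.999, 2.89 and 2.37 CPM in WT and 4.25, 4.72 and 3.77 CPM in PLD, with a log2 fold change of 0.64 ± 0.19 and an adjusted p of 0.0216. mt-Co2 stood at 3.21, 4.04 and 3.30 CPM in WT and 5.82, 5.31 and 5.49 CPM in PLD, 0.67 ± 0.24, adjusted p 0.0475. mt-Nd6 stood at 194, 210 and 249 CPM in WT and 331, 332 and 268 CPM in PLD, 0.53 ± 0.19, adjusted p 0.0450. None of the 3 overlapped between the groups, and mt-Co2 and mt-Co3 among them belong to the copied stretch. Of the rest, mt-Co1 and mt-Nd4 lay above WT without overlap as well, 5 of 12 in all against 26.1% of all genes. They had log2 fold changes of 0.39 ± 0.20 and 0.35 ± 0.15 and adjusted p of 0.150 and 0.0826. mt-Co1 stood at 5152, 6348 and 5637 CPM in WT and 7373, 8486 and 6352 CPM in PLD, the closest pair of libraries being 6348 and 6352. mt-Nd2 had the smallest fold change, -0.16 ± 0.19, adjusted p 0.543. The median of the 12 was 0.37 against -0.03 over all genes. On chromosome 1, 2 of 6 copies tested were called higher, Gm28661 (of mt-Co2) by 1.11 ± 0.16 and Gm29216 (of mt-Co1) by 1.46 ± 0.39. Gm29216 stood at 2.11 to 2.26 CPM in WT and 3.61, 3.43 and 10.9 CPM in PLD. The size of its change thus rests largely on PLD replicate 3. Whether reads of these copies came from chromosome 1 was not tested.

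These calls rested on few libraries. Without WT replicate 1, 2 or 3 or PLD replicate 1 at 2 months, 1 mRNA was called, without PLD replicate 2 none, and without PLD replicate 3, 4. mt-Co2 was lost with each of the 6 left out, mt-Co3 without WT replicate 3 or PLD replicate 2, and mt-Nd6 without WT replicate 1 or 2 or PLD replicate 1 or 2. With all libraries kept, mt-Co2 and mt-Co3 were lost without the filter on low counts, and mt-Co2 and mt-Nd6 with the replicate block. mt-Co3 was also lost when only the libraries compared were fitted. The highest adjusted p over all alternatives was 0.147 for mt-Co2, 0.210 for mt-Co3 and 0.140 for mt-Nd6, and the direction stayed positive in each. mt-Tc was also higher at 2 months, with a log2 fold change of 0.76 ± 0.28 and an adjusted p of 0.0472. Its PLD libraries stood at 7.27, 3.27 and 5.49 CPM and overlapped WT at 3.30, 3.02 and 3.25 CPM, and the call was lost when any library but PLD replicate 2 was left out, with adjusted p up to 0.170.

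**Figure D3:**
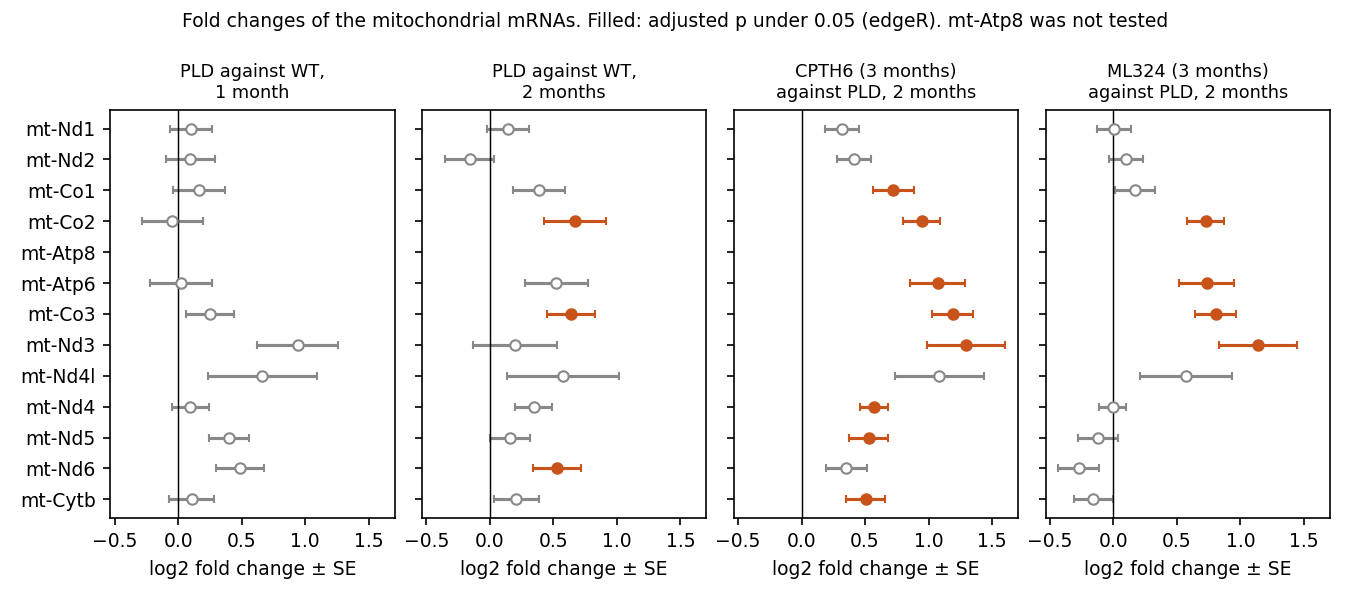
Log2 fold change of each mitochondrial mRNA with its SE in 4 comparisons. Filled points passed an adjusted p of 0.05 (edgeR): 0 at 1 month, 3 at 2 months, 8 with CPTH6 and 4 with ML324, all higher.

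Between 1 and 2 months no mitochondrial mRNA was called in either genotype. In PLD, 2 of 12 had an unadjusted p under 0.05, edgeR called 0 and DESeq2 called 1. Of all genes, edgeR called 4.38% higher and 5.23% lower, with no such share given here for DESeq2. mt-Nd3 had the most negative fold change, from 4.25, 5.86 and 4.72 CPM at 1 month to 3.20, 1.56 and 2.16 CPM at 2 months, without overlap. Its log2 fold change was -1.08 ± 0.32 with an adjusted p of 0.0594, above the threshold. mt-Co2 had the largest, 0.11 ± 0.24, adjusted p 0.800, and it turned to -0.08 without PLD replicate 1 at 1 month. The asparagine tRNA row mt-Tn fell in PLD by 1.79 ± 0.50 on the log2 scale, adjusted p 0.0497, from 3.398, 6.30 and 6.22 CPM to 1.86, 0.805 and 1.86 CPM. That call was lost when any 1 of the 6 libraries was left out, with an adjusted p of up to 0.146. In WT all 12 mRNAs had negative fold changes, from -0.61 ± 0.24 for mt-Co2 (adjusted p 0.276) to -0.12 ± 0.16 for mt-Nd5 (adjusted p 0.737). Of these, 3 had an unadjusted p under 0.05, edgeR and DESeq2 called 0, and edgeR called 0.0507% of all genes. The median of the 12 in WT was -0.31, against -0.04 over all genes. PLD and WT changes over time share no library and were compared by the interaction of genotype and time. No mRNA was called there by edgeR or DESeq2, and 0 had an unadjusted p under 0.05, while 5.68% of all genes were called. mt-Co2 had the largest interaction, 0.72 ± 0.34 (adjusted p 0.231), and mt-Nd3 the smallest, -0.74 ± 0.46 (adjusted p 0.353). With the counts of Gm28661 added to mt-Co2, its interaction became 1.09 with an adjusted p of 0.0234, an alternative chosen after the data were seen.

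Libraries with CPTH6 were set against untreated PLD at 2 months, the nearest untreated group. Compound and time after induction cannot be told apart in this comparison. Treated and untreated libraries are named in separate sentences of the protocol, and whether they were prepared apart is not given in the sources used here. Of 12 mitochondrial mRNAs tested, 8 were higher with CPTH6 and none was lower, against 9.39% higher and 13.7% lower over all genes. Of the 8, 4 belong to the copied stretch, and whether their fold changes follow the whole mRNAs was not tested. All 12 lay without overlap above untreated PLD, as did 17.7% of all genes, and the median log2 fold change was 0.65 against -0.04 over all genes.

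Among the abundant mRNAs, 4 of 7 were called with CPTH6. mt-Co1 rose from 7373, 8486 and 6352 CPM in untreated PLD to 11397, 13630 and 11532 CPM, a log2 fold change of 0.72 ± 0.16 with an adjusted p of 0.0109. mt-Nd4 rose from 995, 956 and 821 CPM to 1373, 1453 and 1272 CPM, 0.57 ± 0.11, adjusted p 0.00564. Both are core subunits of proton-pumping complexes, and both calls held under every alternative run. mt-Nd5 rose from 1228, 1234 and 1132 CPM to 1698, 1915 and 1555 CPM, 0.53 ± 0.15, adjusted p 0.0351. mt-Cytb rose from 2617, 2396 and 1961 CPM to 3006, 3971 and 2898 CPM, 0.50 ± 0.15, adjusted p 0.0420. The call of mt-Nd5 was lost when any of the 6 libraries was left out, with an adjusted p of up to 0.104. That of mt-Cytb was lost without PLD replicate 2 or 3 or any CPTH6 library, with one of up to 0.130. mt-Nd1 had the smallest fold change, 0.32 ± 0.13, adjusted p 0.119. mt-Nd2 and mt-Nd6 were not called, with adjusted p of 0.0534 and 0.141.

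Among the mRNAs of the copied stretch, 4 of 5 tested were called with CPTH6. mt-Co3 rose from 4.25, 4.72 and 3.77 CPM to 8.92, 9.64 and 10.4 CPM, a log2 fold change of 1.19 ± 0.16 with an adjusted p of 0.00115. mt-Atp6, a channel subunit of the ATP synthase, rose by 1.07 ± 0.22, adjusted p 0.00738, and mt-Co2 by 0.95 ± 0.14, adjusted p 0.00206. mt-Nd3 had the largest fold change of the 12, 1.30 ± 0.31, adjusted p 0.0147, and lost its call without PLD replicate 3 or CPTH6 replicate 3, with an adjusted p of up to 0.0564. mt-Nd4l was not called, 1.08 ± 0.35, adjusted p 0.0514. On chromosome 1, 5 of the 6 copies tested were higher: Gm10925 (the copy of mt-Atp6) by 1.29 ± 0.15, Gm28437 (mt-Co3) by 1.36 ± 0.20, Gm28439 (mt-Nd4) by 1.56 ± 0.26, Gm10222 (mt-Nd4l) by 1.87 ± 0.46 and Gm28661 (mt-Co2) by 0.55 ± 0.15, with adjusted p from 0.000776 to 0.0233. Gm29216 (mt-Co1) was not called, 0.43 ± 0.40, adjusted p 0.479, and the copy of mt-Nd3, Gm28438, did not pass the filter. Over all genes 9.39% were called higher. The 5 copies called are identical to their mitochondrial genes over the aligned bases, and whether their reads came from chromosome 1 was not tested. With the counts of each copy added to its mRNA, an alternative chosen after the data were seen, 9 mRNAs were called. The share of all genes called in that setting is not given here. In all, leaving out CPTH6 replicate 3 took the number of called mRNAs from 8 to 5.

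Of the rRNAs, mt-Rnr2 was higher with CPTH6. It stood at 484, 659 and 254 CPM in untreated PLD and 1062, 1043 and 1005 CPM with CPTH6, 1.16 ± 0.30, adjusted p 0.0209. The call was lost without PLD replicate 1 or any CPTH6 library, with an adjusted p of up to 0.0583. mt-Rnr1 overlapped, 490, 1109 and 212 CPM against 1171, 1079 and 1198 CPM, 0.94 ± 0.45, adjusted p 0.167. mt-Tp stood at 20.8, 27.5 and 18.7 CPM against 44.6, 48.4 and 46.9 CPM, 1.07 ± 0.16, adjusted p 0.00187, a call that held under every alternative run. mt-Tl2, a leucine tRNA row, rose from 0.349, 0.215 and 0.196 CPM to 1.13, 0.548 and 0.949 CPM, 1.79 ± 0.53, adjusted p 0.0364, and lost the call when any library but CPTH6 replicate 2 was left out, with an adjusted p of up to 0.120.

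**Figure D4:**
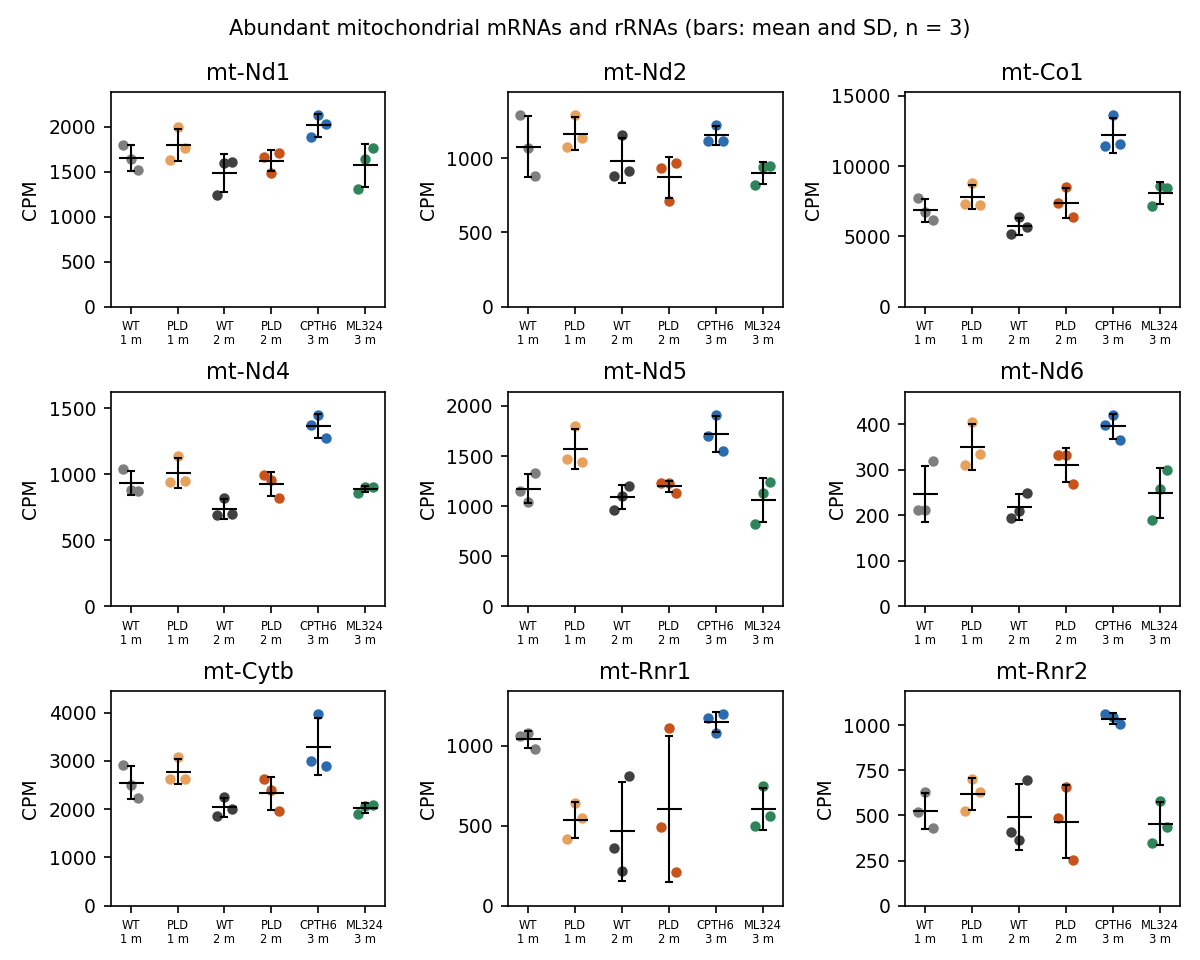
CPM of the 7 abundant mitochondrial mRNAs and the 2 rRNAs in each library, by group, with mean and SD (n = 3). The 3 CPTH6 libraries of mt-Co1 (11397 to 13630 CPM) lie above all others, and mt-Rnr1 in PLD at 2 months spreads from 212 to 1109 CPM.

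ML324 was set against the same untreated libraries, and compound and time after induction cannot be told apart here either. Since both treated groups share these controls, their values are given side by side and the overlap of their calls is not a result. With ML324, 4 of 12 mRNAs were higher and none was lower, against 7.96% higher and 11.4% lower over all genes. All 4 belong to the copied stretch: mt-Co3 at 6.71, 7.37 and 7.44 CPM (0.81 ± 0.16, adjusted p 0.00853), mt-Co2 at 9.32, 9.09 and 8.15 CPM (0.73 ± 0.14, adjusted p 0.00847), mt-Atp6 at 6.88, 7.01 and 6.61 CPM (0.74 ± 0.22, adjusted p 0.0417) and mt-Nd3 at 4.05, 6.001 and 4.66 CPM (1.14 ± 0.31, adjusted p 0.0306). These 4 lay above untreated PLD without overlap, as did 14.5% of all genes. Whether their fold changes follow the whole mRNAs was not tested. The calls of mt-Co2 and mt-Co3 held under every alternative run. mt-Atp6 was lost without PLD replicate 1 or 3 or any ML324 library, with an adjusted p of up to 0.0988, and mt-Nd3 without PLD replicate 2 or 3 or ML324 replicate 2 or 3, with one of up to 0.0891. The number called fell from 4 to 2 without PLD replicate 3, ML324 replicate 2 or ML324 replicate 3.

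None of the 7 abundant mRNAs was called with ML324, and all 7 overlapped untreated PLD. Their log2 fold changes ran from -0.27 ± 0.16 for mt-Nd6 (adjusted p 0.267), the smallest of the 12, to 0.17 ± 0.16 for mt-Co1 (adjusted p 0.484). mt-Nd4 stood at 860, 902 and 904 CPM against 995, 956 and 821 CPM, -0.01 ± 0.11. Neither rRNA was called, with 0.01 ± 0.29 for mt-Rnr2 and 0.05 ± 0.45 for mt-Rnr1. The proline tRNA row mt-Tp stood at 34.9, 41.3 and 48.8 CPM, 0.95 ± 0.16, adjusted p 0.00401, under every alternative still called. Every treated library lay above the 12.7 to 27.5 CPM of the 12 untreated libraries for mt-Tp. On chromosome 1, 3 of 6 copies were higher, Gm10925 by 0.74 ± 0.15, Gm28437 by 0.77 ± 0.20 and Gm28661 by 0.47 ± 0.15. Over all genes 7.96% were called higher, and whether reads of these 3 copies came from chromosome 1 was not tested.

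The 6 mRNAs of the copied stretch were also set against mt-Co1 within each library, which removes the scaling between libraries and compares this ratio between libraries, not levels between genes. They held 20.1 to 28.5 counts per 10000 of mt-Co1 in the 12 untreated libraries. The 3 values were 32.0, 25.8 and 33.7 with CPTH6 and 39.9, 36.3 and 33.5 with ML324. All ML324 libraries lay above the untreated range, as did 2 of 3 CPTH6 libraries. The sum over the chromosome 1 copies per 10000 mt-Co1 counts overlapped between treated and untreated libraries, from 25.1 in WT at 2 months to 48.4 with ML324, with 44.7 in PLD replicate 3 at 2 months. In that library Gm29216 stood at 10.9 CPM, against 3.61 and 3.43 CPM in the other 2.

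**Figure D5:**
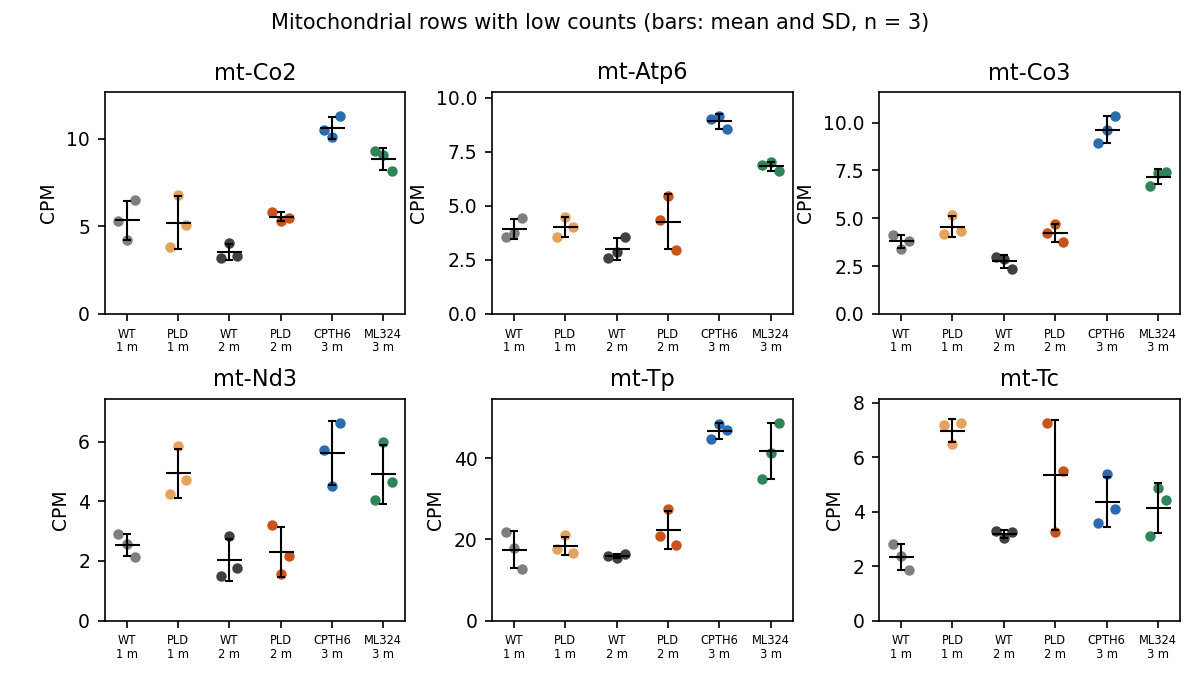
CPM of 4 mRNAs of the copied stretch and of the tRNA rows mt-Tp and mt-Tc in each library, by group, with mean and SD (n = 3). For mt-Tp the 6 treated libraries (34.9 to 48.8 CPM) lie above the 12 untreated ones (12.7 to 27.5 CPM), and mt-Tc is high in PLD at 1 month (6.50 to 7.24 CPM).

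CPTH6 and ML324, both in PLD at 3 months, could be compared without a difference in time. edgeR called 0 of 13 mRNAs, and 0% of all 15989 genes tested. At an unadjusted p under 0.05, 7 of 13 were higher with CPTH6, against 5.99% of all genes. DESeq2 called 5, and the share of all genes that it called is not given here. The 3 libraries of CPTH6 lay above those of ML324 without overlap for 11 of 13 mRNAs, including all 7 abundant ones, and for 12.3% of all genes. mt-Cytb had the largest fold change, 3006, 3971 and 2898 CPM against 1896, 2055 and 2090 CPM, a log2 difference of 0.66 ± 0.14 with an adjusted p of 0.235. mt-Atp8 had the smallest, -0.17 ± 0.46, adjusted p 0.905, at 0.354 to 0.713 CPM with ML324 and 0.353 to 0.632 CPM with CPTH6, and its sign turned without CPTH6 replicate 2 (0.02) or ML324 replicate 2 (0.11). mt-Nd4 differed by 0.57 ± 0.10 and mt-Co1 by 0.55 ± 0.14, with adjusted p of 0.235 and 0.263. The rRNAs also lay apart, mt-Rnr2 by 1.15 ± 0.18 and mt-Rnr1 by 0.89 ± 0.16, with adjusted p of 0.234 and 0.235. The summed level of 4 nuclear-retained RNAs such as Malat1 was 801 to 1870 CPM with CPTH6 and 2509 to 3080 CPM with ML324, with 1 of the 4 at 0 in both groups, and its part in this difference was not tested.

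Nuclear genes that serve mitochondrial DNA were taken from lists chosen with earlier results of these data known. In PLD against WT at 2 months, where 19.7% of all genes were called higher, the subunits of the mitochondrial ribosome stood at 19 of 48 higher and 0 lower for the large subunit and 9 of 29 higher and 1 lower for the small. Mrpl9 rose from 26.0 ± 0.728 to 59.6 ± 9.08 CPM (SD, n = 3), 1.21 ± 0.15 on the log2 scale with an adjusted p of 0.000213. Mrpl28, Mrpl30 and Mrpl45 of the large subunit and Mrps7, Mrps23, Mrps18a and Mrps35 of the small were next by adjusted p, with log2 fold changes of 0.46 to 0.82. These shares were 39.6% and 31%. Among 27 genes that cut, modify or stabilise mitochondrial RNA, 5 were higher and 1 lower, and 18.5% higher is near the background. The 4 with the smallest adjusted p were Grsf1, a protein of mitochondrial RNA granules (0.65 ± 0.14, adjusted p 0.00360), Hsd17b10 (0.60 ± 0.14, adjusted p 0.00575), 1110008L16Rik, the older name of Prorp (0.72 ± 0.17, adjusted p 0.00765), and Trmt10c (0.66 ± 0.19, adjusted p 0.0176). The last 3 are known as proteins of mitochondrial RNase P, which cuts tRNAs from the precursor at their 5′ end. Of 19 genes of mitochondrial translation outside the ribosome, 4 were higher, or 21.1%, near the background: Fars2 by 1.11 ± 0.15, Oxa1l by 0.83 ± 0.13, Tufm by 0.70 ± 0.15 and Yars2 by 0.52 ± 0.16.

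Of 16 genes that copy or transcribe mitochondrial DNA, 4 were higher and 3 lower in PLD at 2 months. These shares, 25% and 18.8%, are near the 19.7% and 20.3% over all genes. Tfam, which packs mitochondrial DNA and starts transcription, stood at 29.6 ± 1.16 CPM in PLD and 23.6 ± 1.61 CPM in WT, 0.35 ± 0.11, adjusted p 0.0271. It was also higher at 1 month, 33.2 ± 3.21 against 22.1 ± 1.48 CPM, 0.56 ± 0.11, adjusted p 0.0205. Mterf4, of the mitochondrial termination factor family, was higher at 2 months by 0.74 ± 0.17, while Mterf3 of the same family fell by 0.53 ± 0.14 and Mgme1, a nuclease of mitochondrial DNA, fell by 0.92 ± 0.18. Of 11 regulators of mitochondrial mass, 3 were higher (27.3%) and 2 lower (18.2%), also near the background, led by Esrra, the nuclear receptor ERR alpha, at 1.30 ± 0.18 (adjusted p 0.000478). Ppargc1b, a coactivator of the PGC-1 family, was higher by 0.99 ± 0.30, and Gabpa and Gabpb1, which form a transcription factor, fell by 0.33 ± 0.09 and 0.54 ± 0.15. Of 18 genes of mitophagy and mitochondrial mass, 5 were higher and none lower (27.8%), led by the outer membrane channels Vdac1 (0.75 ± 0.11) and Vdac2 (0.82 ± 0.12), the import receptor Tomm20 (0.50 ± 0.09) and the protease Lonp1 (0.54 ± 0.12). At 1 month, 1 of 48 large-subunit ribosome genes was called, 2.08% against 3% of all genes, Mrpl32 at 0.43 ± 0.11 (adjusted p 0.0487). Of the 11 regulators, Nrf1 (0.52 ± 0.11) and Pprc1 (0.47 ± 0.11) were higher at 1 month and Ppargc1b fell by 1.23 ± 0.31. Mterf1a, of the termination factor family, fell by 1.45 ± 0.27 at 1 month, and Timm23, of the inner membrane import channel, was higher by 0.67 ± 0.13.

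The nuclear subunits of the same complexes moved as follows at 2 months. In PLD against WT, 9 of 36 subunits of complex I were higher and 2 lower, 6 of 9 of complex III higher, 5 of 11 of complex IV higher and 1 lower, 9 of 15 of complex V higher and 1 of 4 of complex II higher. Over all genes 19.7% were higher and 20.3% lower, and complexes I and II, both at 25% higher, are near this. Uqcrfs1, the iron-sulphur protein of complex III, was higher by 0.89 ± 0.10 (adjusted p 0.000180), Cox4i1 of complex IV by 0.66 ± 0.12 (adjusted p 0.00205) and Ndufa6 of complex I by 1.14 ± 0.16 (adjusted p 0.000377). Next by adjusted p in complex I were Ndufa10 (0.45 ± 0.08), Ndufb5 (0.50 ± 0.10) and Ndufs7 (0.41 ± 0.09), and in complex III Uqcrh (0.73 ± 0.11), Uqcr10 (0.82 ± 0.13) and Cyc1 (0.43 ± 0.08). In complex IV Cox5a (0.47 ± 0.11) and Cox7a2 (0.39 ± 0.12) were higher and Ndufa4 fell by 0.78 ± 0.18. In complex V these were the inhibitor Atpif1 (0.97 ± 0.16), Atp5g2 (0.52 ± 0.09), Atp5d (0.57 ± 0.10) and Atp5c1 (0.42 ± 0.08), and in complex II Sdhd (0.77 ± 0.10). The median log2 fold change was 0.43 for complex III, 0.37 for complex V, 0.32 for complex IV and 0.10 for complex I, against -0.03 over all genes and 0.37 for the 12 mitochondrial mRNAs. Among those 12 it was 0.21 for the 7 abundant mRNAs and 0.57 for the 5 of the copied stretch.

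With CPTH6 against untreated PLD, 1 of 36 nuclear subunits of complex I, 1 of 9 of complex III, 1 of 11 of complex IV and 1 of 15 of complex V were higher and none was lower, against 9.39% higher and 13.7% lower over all genes. Counts of 1 of 9, 11 or 15 are near this background. The genes were Ndufab1 (0.83 ± 0.11), Uqcrb (0.33 ± 0.09), Cox7c (0.41 ± 0.11) and Atp5j2 (0.39 ± 0.12). The medians of these 4 complexes were 0.02, 0.06, 0.25 and 0.17 on the log2 scale, beside 0.65 for the mitochondrial mRNAs. Among the latter it was 0.50 for the 7 abundant ones and 1.08 for the 5 tested of the copied stretch. The difference between the nuclear and mitochondrial sets was not tested. Of the mitochondrial ribosome, 1 of 48 large-subunit (Mrpl46, 0.48 ± 0.10) and 1 of 29 small-subunit genes (Mrps30, 0.46 ± 0.15) were higher, and of the 19 translation genes none was called. Of the 11 regulators of mitochondrial mass 7 were higher and 1 lower, with Pprc1, of the same coactivator family, at 0.92 ± 0.13 (adjusted p 0.00148), Nrip1 at 0.90 ± 0.15, Gabpb1 at 0.69 ± 0.12 and Sirt1 at 0.97 ± 0.19 (adjusted p 0.00630). Of the 16 genes that copy or transcribe mitochondrial DNA, 1 was higher and 1 lower. Tfb2m, the transcription factor that opens the mitochondrial promoter, was higher by 0.50 ± 0.15 (adjusted p 0.0398), and Rnaseh1, which removes RNA paired with DNA, fell by 0.66 ± 0.20 (adjusted p 0.0431). Of the 27 processing genes 3 were higher (11.1%) and 2 lower (7.41%). Pde12, which removes polyA tails, was higher by 0.68 ± 0.15 (adjusted p 0.00997) and Trmt10c by 0.61 ± 0.14 (adjusted p 0.0133). Fastk fell by 0.39 ± 0.09 (adjusted p 0.0144) and Trmu, a tRNA-modifying enzyme, by 0.55 ± 0.15 (adjusted p 0.0274). Of the 18 mitophagy and mass genes, the fission protein Dnm1l was higher by 0.43 ± 0.10 and the fusion protein Mfn2 fell by 0.24 ± 0.08.

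With ML324, 3 of 36 nuclear subunits of complex I, 1 of 9 of complex III, 3 of 11 of complex IV and 3 of 15 of complex V were higher and none was lower, with medians of 0.18, 0.15, 0.39 and 0.20. Over all genes 7.96% were higher and 11.4% lower, and 8.33% for complex I and 11.1% for complex III are near this. The genes were Ndufab1 (0.89 ± 0.11), Ndufb9 (0.64 ± 0.15) and Ndufs4 (0.40 ± 0.11), Uqcrb (0.54 ± 0.09), Cox7c (0.56 ± 0.11), Cox7b (0.56 ± 0.14) and Cox6b1 (0.51 ± 0.15), and Atpif1 (0.58 ± 0.14), Atp5j2 (0.44 ± 0.12) and Atp5h (0.32 ± 0.10). Of the regulators 4 of 11 were higher, Pprc1 at 0.83 ± 0.13 (adjusted p 0.00315), Gabpb1 at 0.68 ± 0.12, Gabpa at 0.32 ± 0.08 and Nrip1 at 0.63 ± 0.15. Mrpl46 (0.58 ± 0.10) and Mrpl52 (0.48 ± 0.11) were the 2 of 48 large-subunit ribosome genes called, the small subunit had none of 29, and Lars2, the mitochondrial leucine tRNA synthetase, was higher by 0.56 ± 0.15. Of the 27 processing genes 3 were higher and none lower. These were Ptcd3 (0.43 ± 0.10), Trmt10c (0.46 ± 0.14) and Slirp, at 2.20 CPM against 0.355 CPM (2.63 ± 0.74, adjusted p 0.0352). Of the 18 mitophagy and mass genes Dnm1l was higher by 0.39 ± 0.10, and Pink1 and Bnip3 fell by 0.46 ± 0.14 and 0.81 ± 0.25. Of the 16 genes that copy or transcribe mitochondrial DNA, Mterf3 was higher by 0.52 ± 0.12 (adjusted p 0.0138) and 1 was lower. Polrmt, the RNA polymerase of mitochondria, was that gene, at 20.1 ± 2.68 CPM against 30.3 ± 5.04 CPM, and fell by 0.54 ± 0.16 with an adjusted p of 0.0383. Fibroblast markers fell in both treated groups, 15 of 16 called lower with CPTH6 and 14 of 16 with ML324, and endothelial markers 8 of 16 and 4 of 16. Whether these markers take part in the differences above was not tested.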

How the data were processed

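The deposited files hold raw read counts per gene for 18 polyA RNA libraries, made by the authors with featureCounts 1.6.0 in paired mode on GENCODE vM25 (mm10), per the file headers. The header's command sets neither strand nor multi-mapping options, so reads were counted without strand and reads with several places were not counted. Alignment used STAR 2.7.4a with SAMtools 1.12 and DESeq2 1.26.0, per the submitters' processing notes. Counts were tested with edgeR 4.0.16 (R 4.3.3): filterByExpr, TMM scaling and the quasi-likelihood test, with Benjamini-Hochberg adjustment over all genes tested and a threshold of 0.05. The 12 untreated libraries shared 1 fit, the 6 treated libraries had another, and a fit of 9 libraries set each compound against PLD at 2 months. Each SE was derived from the fold change and its F statistic (absolute log2 value over root F). Counts per 1000000 reads (CPM) used TMM sizes over all 18 libraries. Alternatives were DESeq2 1.42.0, RLE and nuclear-only scaling, no filter, the replicate number as a block, only the libraries compared, and each library left out. The test was checked on simulated data. All 37 rows are accounted for. Values are given for the mRNAs and rRNAs called, for those with the largest and smallest fold change in each comparison, for tRNA rows that passed the filter and were called, and for up to 4 called genes, by adjusted p, of each list of nuclear genes for mitochondria. Members and the 21 gene lists were chosen with earlier results of these data known. An older symbol served to find 2 list genes, and 1 had no match. Sequences came from the GENCODE vM21 transcripts on mm10. The 6 mRNAs of the copied stretch held 220 to 982 counts per library.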

Additional observations from a re-analysis of the deposited data

How the results depend on the processing

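The number of mitochondrial mRNAs called moved with the tool, and the cause was not tested. Shares of all genes called under the alternatives are not given here, so the counts below have no background beside them. DESeq2 called 2 at 1 month, 5 at 2 months, 1 over time in PLD and 5 between CPTH6 and ML324. Without the filter on low counts these were 1 at 2 months, 1 over time in PLD and 4 between the compounds, and that setting moved the median of all genes at 2 months by -0.59 on the log2 scale. With only the libraries compared, 1 was called over time in PLD and 2 with ML324, and with counts joined to the chromosome 1 copies 1 was called in the interaction. Leaving out each library in turn gave 0 to 2 at 1 month, 0 to 4 at 2 months, 5 to 8 with CPTH6 and 2 to 4 with ML324. The replicate block gave 1 at 2 months, 6 with CPTH6, 4 with ML324 and 0 in the others. It lost mt-Tn over time in PLD and mt-Nd5, mt-Cytb and mt-Tl2 with CPTH6. Fitting only the libraries compared lost mt-Cytb with CPTH6, and mt-Atp6 and mt-Nd3 with ML324. The call of mt-Tc at 2 months was lost under both, and without the filter on low counts. Correlations of same-numbered libraries ran from -0.23 to 0.26, and 5 were above 0.1, the least taken as pairing. Differently numbered libraries reached 0.255, so these values do not settle whether the replicate number marks a pairing. With the rRNAs included, the share of the library was 1.63% in WT at 1 month, 1.39% in WT and 1.56% in PLD at 2 months, and 2.27% with CPTH6. Signs turned for mt-Co2 at 1 month without WT replicate 3 (0.127) or PLD replicate 1 (0.136; range -0.278 to 0.136), and over time in PLD without PLD replicate 1 at 1 month (-0.0758; range to 0.336). They also turned for mt-Nd2 at 2 months without WT replicate 2 (0.00263) or PLD replicate 2 (0.00926; range -0.241 to 0.00926), and for mt-Atp8 between the compounds without CPTH6 replicate 2 (0.0168) or ML324 replicate 2 (0.109; range -0.376 to 0.109). The calls of mt-Co1, mt-Co2, mt-Atp6, mt-Co3, mt-Nd4 and mt-Tp with CPTH6, and of mt-Co2, mt-Co3 and mt-Tp with ML324, were kept in all 13 alternatives.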
